A study of Mus musculus with 6 samples.

Results

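The replication-dependent histone genes were examined for open chromatin in untreated V6.5 cells, a mouse embryonic stem cell (mESC) line. The set comprised 57 genes of 21000 protein-coding RefSeq genes with a curated transcription start site (TSS) in GRCm38, and a gene was a member when its symbol was that of a clustered core histone gene (H2ac, H2bc, H3c or H4c with a number, or the older Hist names). It held 17 H2A, 16 H2B, 12 H3 and 12 H4 genes. The choice used gene symbols and no measured value, though earlier results of these data were known when it was made. The members formed 2 clusters, with 47 genes in a cluster of 2239 kb on chromosome 13 and 10 genes in a cluster of 70.3 kb on chromosome 3, each taken with 10 kb on both sides.

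Core histones are made mostly in S phase, when newly copied DNA has to be packed into nucleosomes. The mRNAs of these genes have no poly(A) tail and end in a conserved stem-loop that is bound by SLBP. Their transcription depends on the coactivator NPAT, with HINFP acting on H4 promoters and OCT1, which binds the octamer sequence, acting on H2B promoters. Many H2A and H2B genes lie head to head and share 1 promoter region. Embryonic stem cells divide quickly and spend much of their cycle in S phase.

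The series contains 6 ATAC-seq samples in 3 conditions of 2 replicates each. ATAC-seq uses the Tn5 transposase to cut and tag accessible DNA, and the libraries were selected for mono- and dinucleosome fragments. The untreated V6.5 mESCs were grown on irradiated mouse embryonic fibroblasts in DMEM-KO with FBS and LIF. ZBTB21-degron mESCs, in which the endogenous ZBTB21 protein carries a degradation tag in selected clones, were labelled 0 and 6 h and were not analysed here. A shared treatment note in the labels mentions doxycycline for degron cells, while the cells of the untreated samples are labelled V6.5. The deposited list pools both untreated replicates, so the depth of the libraries and the differences between replicates are unknown, and every number below describes 1 list without a test. The list held 41014 peaks with a lowest score of 540 and a median score of 696. It had a peak within 1 kb of a TSS at 4 of 8 pluripotency genes (Pou5f1, Nanog, Zfp42 and Dppa5a, but not Sox2, Klf4, Esrrb or Tfcp2l1). Of 8 fibroblast genes, which could mark the feeder cells, Thy1 had one and Col1a1, Col1a2, Col3a1, Postn, Twist1, Prrx1 and Lum had none.

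The promoter windows below, from 250 bases before to 50 bases after the TSS, were taken from RefSeq (GRCm38.p6) and are written 5′ to 3′ on the strand of the gene. The first 4 belong to the member with the highest-scored peak of each histone type, and H2ac15 is the H2A gene that lay farthest from any peak. H2bc12, a gene without a peak and with an octamer, was chosen after the values were seen. Capitals mark matches on either strand to the CCAAT box, to the TATA box (searched as TATAAA), to the octamer (ATTTGCAT), to the H1 element (AAACACA) and to the core of the H4 element (GGTCCG).
H2ac22, chr13:21787199-21787498, minus strand: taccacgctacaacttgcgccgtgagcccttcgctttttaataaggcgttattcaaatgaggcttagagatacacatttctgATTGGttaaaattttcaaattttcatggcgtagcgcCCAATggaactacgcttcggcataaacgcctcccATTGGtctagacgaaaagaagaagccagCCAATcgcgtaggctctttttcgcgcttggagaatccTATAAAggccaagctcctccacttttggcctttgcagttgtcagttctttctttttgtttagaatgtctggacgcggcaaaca
H2bc22, chr13:21787238-21787537, plus strand: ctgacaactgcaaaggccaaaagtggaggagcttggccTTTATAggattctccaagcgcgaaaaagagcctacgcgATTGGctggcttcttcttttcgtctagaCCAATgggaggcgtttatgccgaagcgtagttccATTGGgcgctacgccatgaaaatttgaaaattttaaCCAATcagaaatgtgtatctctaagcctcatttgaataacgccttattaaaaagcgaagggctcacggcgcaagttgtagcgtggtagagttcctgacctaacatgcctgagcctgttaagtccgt
H3c6, chr13:23562336-23562635, minus strand: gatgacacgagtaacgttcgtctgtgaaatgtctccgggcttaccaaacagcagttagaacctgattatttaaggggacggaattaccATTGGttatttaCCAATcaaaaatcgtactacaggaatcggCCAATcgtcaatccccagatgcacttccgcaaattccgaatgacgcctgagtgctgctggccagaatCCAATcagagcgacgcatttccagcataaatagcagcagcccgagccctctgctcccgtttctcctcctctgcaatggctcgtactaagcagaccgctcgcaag
H4c6, chr13:23551619-23551918, minus strand: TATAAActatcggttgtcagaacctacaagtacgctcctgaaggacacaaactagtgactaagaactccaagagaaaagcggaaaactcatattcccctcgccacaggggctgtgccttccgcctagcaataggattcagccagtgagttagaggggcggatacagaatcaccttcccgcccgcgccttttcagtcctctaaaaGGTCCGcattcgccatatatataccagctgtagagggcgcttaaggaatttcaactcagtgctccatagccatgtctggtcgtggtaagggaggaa
H2ac15, chr13:21753863-21754162, minus strand: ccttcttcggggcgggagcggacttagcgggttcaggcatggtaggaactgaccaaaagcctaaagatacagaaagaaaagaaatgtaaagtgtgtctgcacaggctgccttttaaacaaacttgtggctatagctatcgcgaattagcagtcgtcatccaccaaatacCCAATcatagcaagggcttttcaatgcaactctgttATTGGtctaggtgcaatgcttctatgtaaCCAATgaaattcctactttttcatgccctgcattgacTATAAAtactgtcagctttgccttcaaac
H2bc12, chr13:22035571-22035870, plus strand: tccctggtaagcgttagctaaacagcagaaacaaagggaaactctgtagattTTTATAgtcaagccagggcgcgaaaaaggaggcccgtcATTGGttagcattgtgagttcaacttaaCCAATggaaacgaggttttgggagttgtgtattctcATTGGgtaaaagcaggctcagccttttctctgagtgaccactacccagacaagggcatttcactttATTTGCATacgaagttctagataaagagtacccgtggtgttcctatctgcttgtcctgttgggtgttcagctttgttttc

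Of the 57 histone genes, 28 (49.1%) had a peak within 1 kb of a TSS, while 28.5% of all protein-coding genes had one. The TSS itself lay inside a peak at 20 histone genes, or 35.1%, against 25.2% of all protein-coding genes. Among genes with a peak within 1 kb, the peak covered the TSS in 71.4% of the histone genes and in 88.3% of all protein-coding genes. Histone genes thus had a peak at the TSS more often than protein-coding genes as a whole, and where a histone gene had one it lay beside the TSS more often. At 4 of the 8 histone genes with a peak beside the TSS, under 50% of 50-base stretches near the TSS were unique in the genome. Neighbouring members shared peaks, so the 28 genes rested on 25 distinct peaks. When TSSs that lie within 500 bp of each other were counted as 1 promoter, 23 of 44 promoters (52.3%) had a peak.

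**Figure D1:**
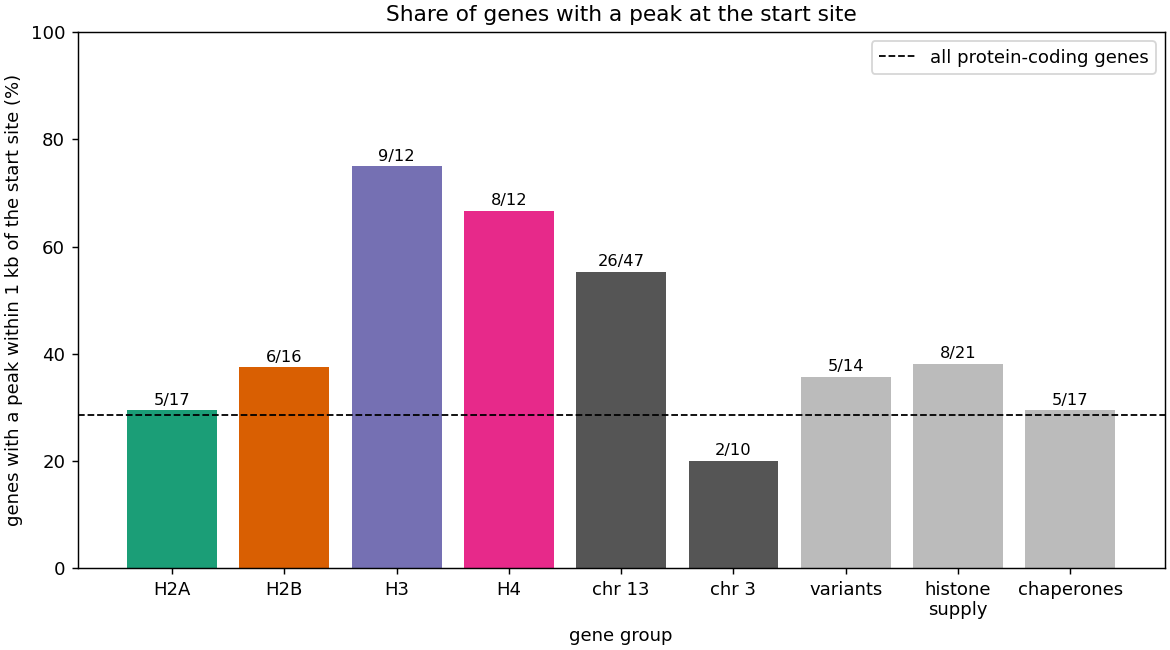
Share of genes with a peak within 1 kb of the TSS (vertical axis, %) by gene group (horizontal axis); the numbers over the bars give genes with a peak over all genes of the group, and the dashed line marks all protein-coding genes (28.5%). H3 and H4 genes stood above the line, H2A genes and the histone chaperone genes lay near it, and the chromosome 3 genes lay below it.

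The histone types differed in these shares. A peak was listed at 9 of 12 H3 genes (75%) and 8 of 12 H4 genes (66.7%), but at 6 of 16 H2B genes (37.5%) and 5 of 17 H2A genes (29.4%), of which the last is close to the 28.5% of all protein-coding genes. This closeness held at 1 kb and not at 2.5 kb, where 9 of 17 H2A genes had a peak against 33.2% of all protein-coding genes. Within 500 bp the counts were 6 of 12 H3, 6 of 12 H4, 6 of 16 H2B and 5 of 17 H2A genes, against 26.7% of all. The TSS itself lay inside a peak at 5 of 12 H3, 5 of 12 H4, 6 of 16 H2B and 4 of 17 H2A genes, against 25.2% of all. By this count the H3, H4 and H2B genes lay closer together. H3 and H4 form the tetramer at the core of the nucleosome, and H2A and H2B form the dimers that flank it. The order was not one of score. The highest-scored peak of each gene with a peak had a median score of 823 for H2A and 835 for H2B, against 669 for H3 and 688 for H4. Within 1 kb, H2A and H2B genes thus had a peak less often, while the median score was higher. These medians were not of like peaks. Among genes with a peak, the TSS lay inside one at 4 of 5 H2A and 6 of 6 H2B genes. For H3 and H4 this was so at 5 of 9 and 5 of 8 genes. Peaks over a member TSS had a median score of 797, against 600 for those beside it. The H2A and H2B medians also share 4 peaks that cover both genes of a head-to-head pair. When only peaks above the median score of the list were counted, the difference was smaller, with a peak at 4 of 12 H3, 4 of 12 H4, 5 of 16 H2B and 3 of 17 H2A genes, against 18.7% of all protein-coding genes. The difference between the types was not tested, since the list has no replicate values and paired genes share peaks.

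Among the H3 genes, H3c6 had the highest-scored peak of all members (score 904, 704 bp wide), and it covered the TSS. H3c8 (854, 594 bp), H3c2 (798, 429 bp), H3c10 (669, 245 bp) and H3c3 (628, 288 bp) also had the TSS inside a peak. At the other 4 H3 genes the peak lay to one side. H3c7 was 447 bp from the peak of its neighbour H2bc9 (847), H3c11 was 555 bp from a peak of score 599, H3c4 was 844 bp from one of score 611, and H3c14 was 530 bp from one of score 575. H3c1, H3c13 and H3c15 had no peak within 1 kb.

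Among the H4 genes, the TSSs of H4c6 (834, 433 bp), H4c2 (796, 755 bp), H4c4 (663, 815 bp), H4c8 (619, 938 bp) and H4c3 (572, 763 bp) lay inside a peak. H4c11 lay between a peak of score 713, 238 bp away, and one of score 662. H4c17 (600) and H4c18 (760) had peaks 579 and 522 bp away. H4c1, H4c9, H4c12 and H4c14 had none. The position of the peaks differed at the H4 genes with the TSS in a peak. At all 5 H4 genes with the TSS in a peak the middle of the peak lay downstream of the TSS, by 24 to 322 bp, and at 4 of them (H4c2, H4c3, H4c4 and H4c8) peaks covered the whole gene. In H2A, H2B and H3 together the middle was downstream at 4 genes, and 1 gene, H2ac13, was covered whole. H3c3 is not among these 4, as the middle of its peak lay at the TSS to the nearest bp. The median position of the middle of the peak, with negative values upstream of the TSS, was -65.5 bp for H2A, -139.5 bp for H2B, -10 bp for H3 and 247 bp for H4. Over all H4 members, a median of 89.3% of 50-base stretches near the TSS were unique in the genome. The median was 70% for H2A, 70.5% for H2B and 77% for H3, and whether this bears on the position was not tested.

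**Figure D2:**
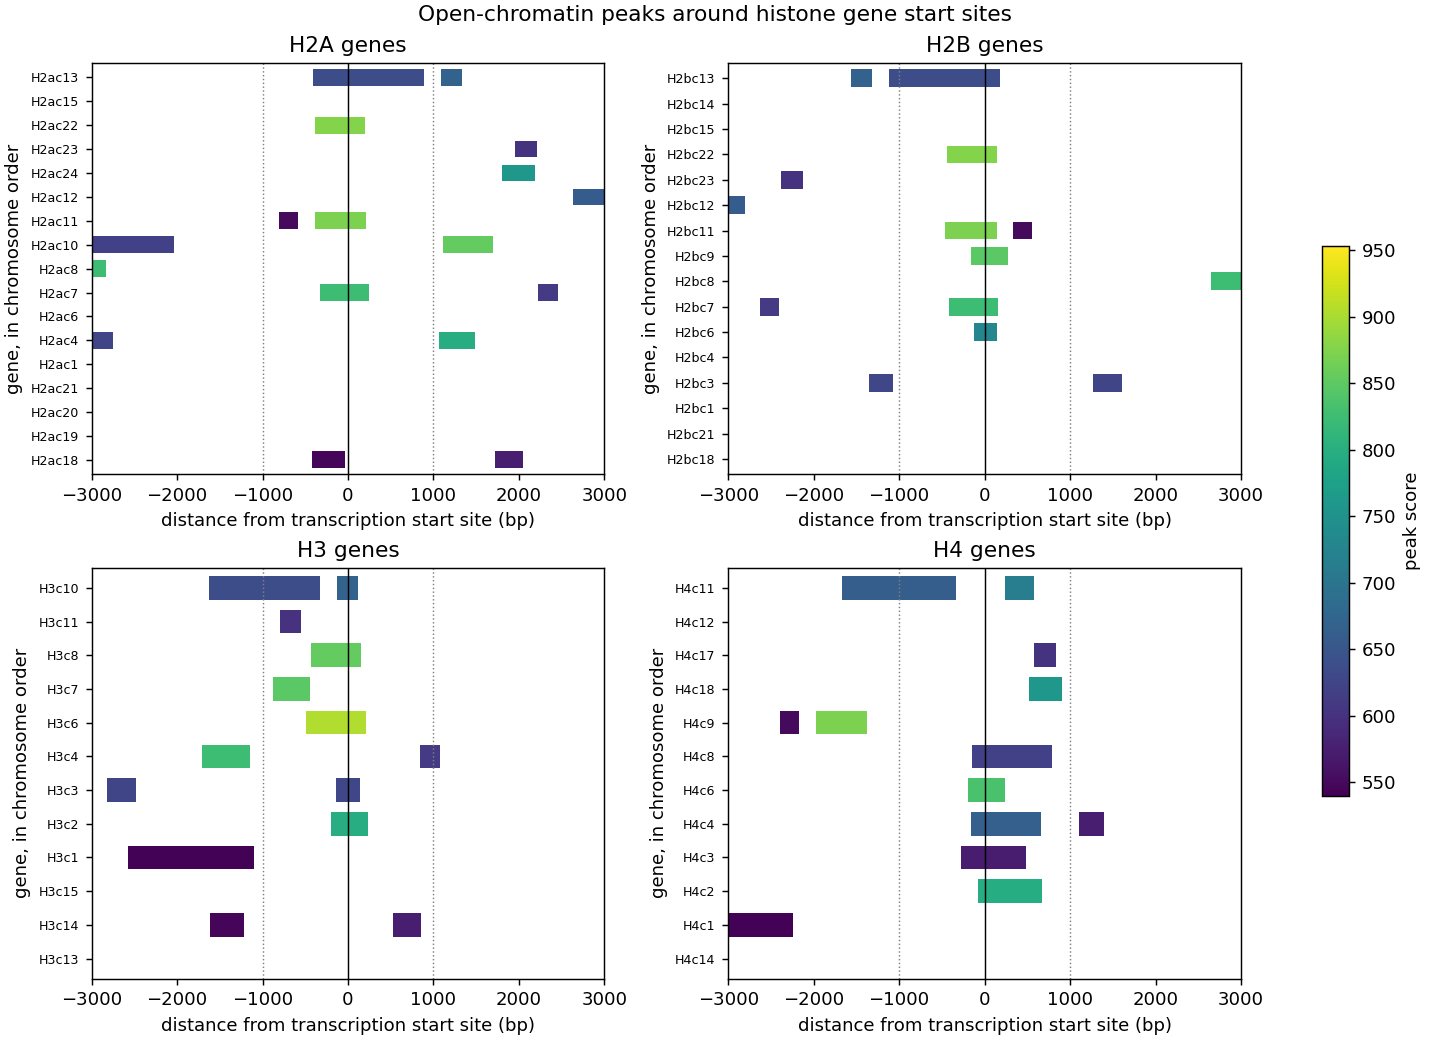
ATAC-seq peaks around the TSS of every histone gene, 1 row per gene in chromosome order; the horizontal axis is the distance from the TSS in bp, with positive values in the direction of transcription, bars span each peak within 3000 bp, their colour is the peak score, and dotted lines mark 1000 bp on each side. Peaks of H4c2, H4c3, H4c4 and H4c8 extend to the right over the gene, and many H2A and H2B rows are empty around the TSS.

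H2A and H2B genes were largely in divergent pairs, of which there were 11 with TSSs 164 to 281 bp apart. In 4 pairs 1 peak covered both TSSs. These were H2ac22 and H2bc22 (score 876), H2ac11 and H2bc11 (872), H2ac7 and H2bc7 (823) and H2ac13 and H2bc13 (636, in a wide peak of 1300 bp). The other 7 pairs had no peak within 1 kb of either TSS, so no pair had a peak at 1 gene alone, as the short distance between paired TSSs makes likely. These were H2ac15 and H2bc15, H2ac23 and H2bc23, H2ac12 and H2bc12, H2ac8 and H2bc8, H2ac6 and H2bc4, H2ac1 and H2bc1, which encode testis histones, and H2ac20 and H2bc21 on chromosome 3. Of the 35 members outside such pairs, 20 had a peak. All 12 H3 and all 12 H4 genes were among these 35, with a peak at 9 and 8 of them. The share outside pairs therefore mixes histone types and cannot be set against that of the pairs. Outside the pairs, H2bc9 (847) had the TSS inside a peak and H2ac18 was 32 bp from a peak of score 545. H2bc6, which has 3 curated TSSs, had a TSS inside a peak (729), but this peak does not reach the 5′ end of the gene. With only the 5′ end of each gene counted, 5 H2B genes had a peak. No peak was listed within 1 kb at H2ac4, H2ac10, H2ac19, H2ac21, H2ac24, H2bc3, H2bc14 and H2bc18.

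The 1 kb limit passed through a few near cases. Just inside it was H3c4 (844 bp), and just outside were H2ac4 (1061 bp), H2bc3 (1070 bp), H3c1 (1103 bp) and H2ac10 (1106 bp), each next to a peak at another histone gene or at H1f1. Of the 29 members without a peak, 14 lay over 5 kb from the nearest one, and H2bc15 (18467 bp) and H2ac15 (18303 bp) lay farthest.

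The 25 peaks at histone gene TSSs had a median score of 669 and a median width of 433 bp. The 5852 peaks within 1 kb of any protein-coding TSS had medians of 742 and 757 bp, and the whole list had medians of 696 and 547 bp. Peaks at histone genes were thus narrower and lower in score than peaks at TSSs in general. The 16 peaks that covered a member TSS had a median score of 797, against 757 for the peaks over any protein-coding TSS, and a median width of 593 bp, against 788 bp. The 9 peaks that lay near but not over a member TSS had a median score of 600 and a median width of 325 bp. Among the peaks at members, the lower scores were thus those of the peaks beside the TSS. The peaks over the TSS were narrower than those over any protein-coding TSS. Near the TSS, a median of 75.6% of 50-base stretches were unique in the genome for members with the TSS in a peak. It was 100% for all protein-coding genes with a peak, and whether this bears on the width was not tested. Peaks beside other protein-coding TSSs were not summarised apart, so whether those beside histone TSSs differ from them in score or width is unknown.

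The promoter windows were searched for 5 short sequences. Windows were at hand for 52 members, and H2bc4, H2bc21, H3c1, H3c7 and H4c14 had none in the table. CCAAT, the box bound by NF-Y, was in 84.6% of the member windows, against 38.4% of 20488 promoter windows of all genes. TATAAA, the letters of the TATA box, was in 57.7% of the member windows and in 12.4% of all windows. Matches were counted on either strand and at any place in the window, so they do not show a TATA box of the gene itself. In the H4c6 window above the match opens the window, and in those of H2bc22 and H2bc12 it is on the other strand. CCAAT was found in all 17 H2A, 14 H2B and 10 H3 windows and in 3 of 11 H4 windows. GGTCCG, the core of the H4 element bound by HINFP, was in 10 of 11 H4 windows, in 1 H3 and 1 H2B window, and in 10.7% of all windows. AAACACA, named the H1 element after the linker histone promoters, was in 4 member windows (7.69%) and 6.11% of all windows.

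The octamer ATTTGCAT was in 25% of the member windows and in 1.61% of all windows, and among members it was found at 6 H2A and 7 H2B genes. These genes were mostly without a peak. The octamer was in 1 of 27 windows of members with a peak, that of H2bc6, and in 12 of 25 windows of members without. Among H2A and H2B genes alone, 1 of 13 with an octamer had a peak, against 10 of 18 without an octamer. Of the 12, H2ac4 and H2bc3 were among the genes just outside 1 kb of a peak. The 13 genes held 10 separate octamer sites, since paired genes share a site, and 1 of the 10 sites lay inside a peak. By pairs, the octamer was found in 0 of the 4 with a peak over both TSSs and in 5 of the 7 without a peak (those of H2ac12, H2ac8, H2ac6, H2ac1 and H2ac20), which can be seen by setting the H2bc22 window above beside that of H2bc12. GGTCCG showed the opposite split, with 10 of 27 windows with a peak and 2 of 25 without, but it followed the histone type, since 8 of the 10 H4 genes that carry it had a peak. A match is a description of the letters and not of bound protein, and these splits were not tested.

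**Figure D3:**
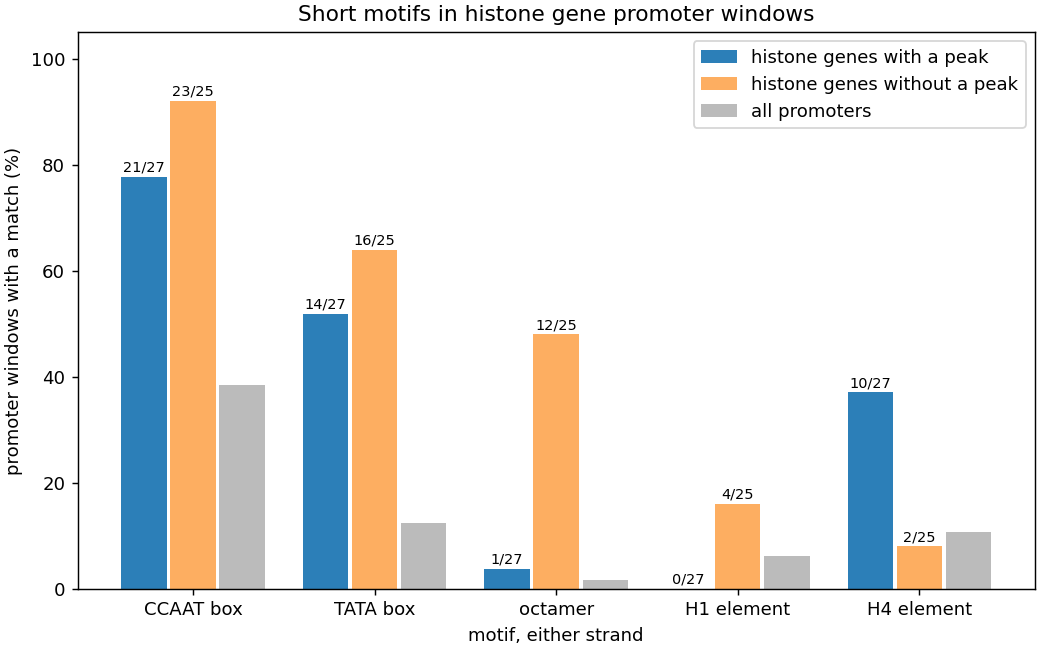
Share of promoter windows with each motif on either strand (vertical axis, %), for histone genes with a peak within 1 kb of the TSS (blue), histone genes without one (orange) and all promoter windows (grey); numbers over the bars are windows with the motif over all windows. The octamer was in 1 of 27 windows with a peak and 12 of 25 without, and the H4 element in 10 of 27 and 2 of 25.

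The stem-loop that ends histone mRNAs was searched within 100 bases after the stop codon of each member. The search took a perfect stem of 6 base pairs that opens with GG, around a loop of 4 bases. Such a stem-loop was found at 55 of 57 genes, 22 to 59 bases after the stop codon, and was not found for H2ac22 and H2bc21. Only 8 sequences accounted for all 55, of which the 3 most frequent are shown with the loop in capitals and the position of the first example.
Shared by 33 H2A, H2B and H3 genes (H2ac13, chr13:21716839-21716854, plus strand): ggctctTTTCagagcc
Shared by 8 H2A, H2B and H3 genes (H2bc13, chr13:21715718-21715733, minus strand): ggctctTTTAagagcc
Shared by 7 H4 genes (H4c12, chr13:21750150-21750165, minus strand): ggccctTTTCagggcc
A peak was listed at 14 of the 33 genes, 4 of the 8 genes and 6 of the 7 genes. The 3′ stem-loop was present at 28 of 29 members without a peak and at 27 of 28 with one, so these 2 sets did not stand apart in it.

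Histone genes are near copies of each other, which limits where short reads can be placed. In the 1 kb on each side of the TSS, a median of 74.8% of 50-base stretches of the members were unique in the genome, against 100% over all protein-coding genes. Under 50% were unique at 9 members, and at H2ac23, H2ac24 and H2bc23 none were. A peak was listed at 4 of these 9 members, namely H4c17, H4c18, H2ac18 and H3c14, whereas 8 of 868 protein-coding genes (0.922%) below 50% had one, these 4 included. All 4 of these peaks lay beside the TSS, and every member with the TSS inside a peak had at least 61.4% unique stretches. H4c17 and H4c18 were the same at 298 of 299 aligned promoter bases, and both had a peak. H3c14 and H3c15 were the same at 284 of 285 bases, and H2ac18 and H2ac19 at 249 of 260, but a peak was listed only at H3c14 and H2ac18 of these. Which copy such reads came from is uncertain, and how reads that map to several places were treated is not given for ATAC-seq in the sources used here, while for ChIP-seq the methods state that uniquely mapped reads were kept. Members with and without a peak had similar medians (75.2% and 74.3%).

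The members of chromosome 13 lay in 3 blocks, joined across gaps of up to 200 kb. A peak was listed at 9 of 16 genes of the first block, at 2 of 5 genes of the second block and at 15 of 26 genes in the last block, and the TSS lay inside a peak at 5, 2 and 13 genes. On chromosome 3 a peak was listed at 2 of 10 genes and covered none of the TSSs. The chromosome 13 cluster (chr13:21705711-23944913) held 89 peaks, or 39.7 per Mb, against 15.2 per Mb on the whole chromosome and 15.0 over the genome. The smaller chromosome 3 cluster (chr3:96209885-96280192) held 5 peaks, or 71.1 per Mb, against 11.6 per Mb on its chromosome, with scores between 545 and 707. The 2 clusters thus both held more peaks per length than their chromosomes, while on chromosome 3 few lay at histone gene TSSs.

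Of the 89 peaks of the chromosome 13 cluster, 23 lay at histone member TSSs, 3 at linker histone TSSs, 6 at other protein-coding TSSs and 19 elsewhere. The largest class were 38 peaks within 1 kb of a tRNA gene. The cluster held 79 tRNA genes, of which 49 (62.0%) had a peak within 1 kb, against 46.2% of the 403 tRNA genes of the genome annotation. They lay mostly outside the histone blocks, with 28 tRNA genes and 17 tRNA peaks among the 19 peaks between the first and second blocks. Between the second and last blocks, 1467 kb held 29 peaks (19.8 per Mb), and 36 of its 40 protein-coding genes were Vmn1r pheromone receptor genes, of which 0 had a peak.

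**Figure D4:**
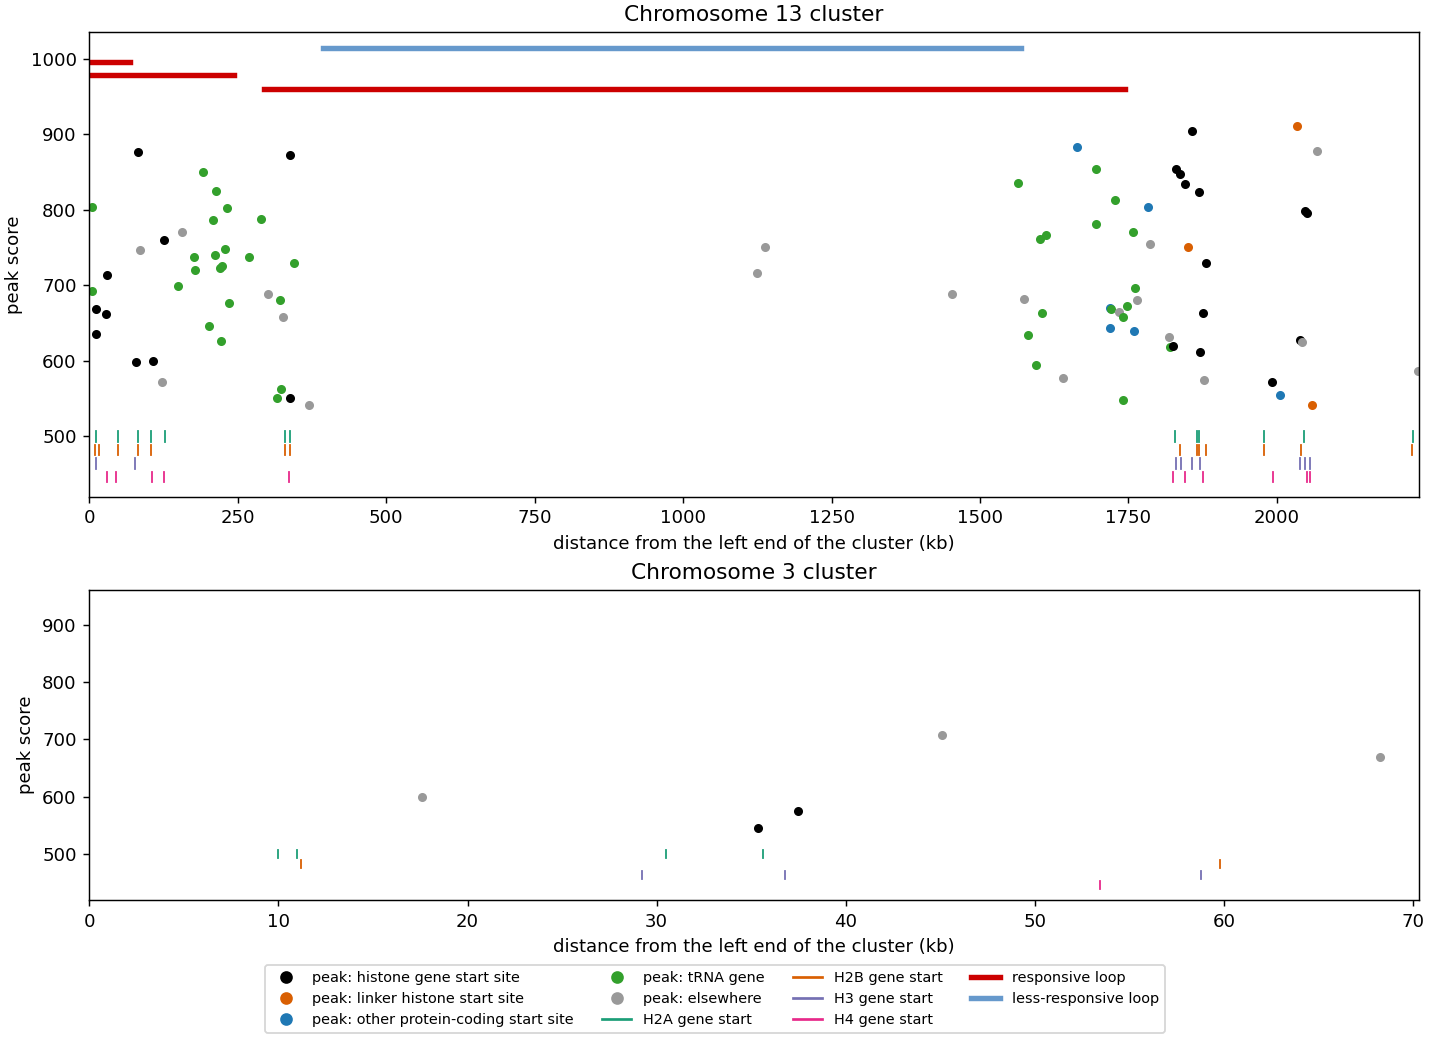
Peaks (points, at the middle of each peak, by score on the vertical axis) along the chromosome 13 cluster (top) and chromosome 3 cluster (bottom), against the distance from the left end in kb, coloured by what lies within 1 kb. Ticks mark the TSSs by histone type, and bars above the points mark loops, cut at the left end, whose height has no meaning. Black points gather in the blocks of ticks at both ends of the chromosome 13 cluster, and green tRNA points lie beside them.

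The linker histone genes share the chromosome 13 cluster but are no members. H1f2 (score 911), H1f3 (751) and H1f1 (542) had a peak within 1 kb, and H1f4, H1f5 and H1f6, of which the last is a testis histone, had none. The 911 was higher than the scores of the peaks at the 57 members, of which the highest was 904. Of 49 other protein-coding genes in the cluster, 5 had a peak: Zfp322a (883), Btn2a2 (804), Abt1 (670), Btn1a1 (640) and Hfe (555).

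The study lists 500 ZBTB21-responsive and 500 less-responsive loops of mESCs, longer than 500 kb and with anchors of 25 kb. Responsive loops had to hold ZBTB21 peaks and cohesin peaks that decreased after ZBTB21 was degraded, and less-responsive loops had to hold neither. Their rank added up the ZBTB21 signal and the size of the cohesin change, in either direction, over the ATAC-seq peaks within a loop. The classes were therefore chosen in part through ATAC-seq peaks, so the numbers of peaks and of genes per class below are a description and no contrast between the classes is read from them. To see in which of them histone genes lie, each TSS was placed between the outer edges of the anchors. A responsive loop held 21 of 57 members (36.8%), against 15.6% of all protein-coding genes, and a less-responsive loop held 0, against 5.74%. These 21 genes were neighbours and lay in 3 loops. The loop chr13:21225001-21950000 (725 kb) held all 16 genes of the first block, and the loop chr13:21200001-21775000 (575 kb) held 8 of the same genes. The loop chr13:22000001-23450000 (1450 kb) held the 5 genes of the second block. The 26 genes of the last block and the 10 of chromosome 3 were in no listed loop. The anchor of the 575 kb loop held H4c12, H2ac15 and H2bc15, all without a peak and the last of these the member farthest from one. A peak was listed at 11 of the 21 genes in responsive loops and 17 of the other 36, which are similar shares. The loop of 725 kb held 46 peaks, of which 8 were at histone gene TSSs, and that of 1450 kb held 30, of which 2 were. The less-responsive loop in the cluster, chr13:22100001-23275000 (1175 kb), lay within the stretch between the second and last blocks and held 4 peaks. It also lay inside the responsive loop of 1450 kb. The whole stretch of 1467 kb held 29 peaks.

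Genes that act with the replication-dependent histones were described in the same way. Of 52 such genes 18 (34.6%) had a peak within 1 kb, against 28.5% of all protein-coding genes, with a median score of 757.5. Of 14 replication-independent variants, 5 had one: H2az2 (945), H3f3b (917), Cenpa (877), which encodes the centromeric H3, H2aj (860) and the linker histone H1f10 (579). H2az1, H2ax, Macroh2a1, Macroh2a2, H3f3a, H1f0, H1f7, H1f8 and Hils1 had none. Of 21 genes for the transcription, processing and turnover of histone mRNA, 8 had one, which were Casp8ap2 (907), Srrt (814), Lsm10 of the U7 snRNP (855), Sympk (761), Upf1 (724), Hinfp (722), Zfp473 (612) and Slbp (543). Npat, Pou2f1, which encodes OCT1, Gon4l, E2f1, Lsm11, Cpsf2, Cpsf3, Cstf2, Ncbp1, Ncbp2, Eri1, Xrn1 and Lsm1 had none. Of 17 chaperone genes, 5 had one, with Anp32e (894) highest, then Nasp (754), Cabin1 (752), Hira (639) and Asf1b (617). Asf1a, Chaf1a, Chaf1b, Rbbp4, Hat1, Ubn1, Daxx, Atrx, Hjurp, Supt16, Ssrp1 and Nap1l1 had none. The share of the chaperones (29.4%) lay near that of all protein-coding genes. Those of the variants (35.7%) and the supply genes (38.1%) lay above it, in sets of only 14 and 21 genes, and were not tested.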

How the data were processed

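ATAC-seq was performed in 6 samples (3 conditions, 2 each), and 1 peak list, which pools both untreated replicates, was analysed. The deposited list gives positions in mm10 and a score per peak, whose scale is not given in the sources used here. The submitters' processing notes name cutadapt 2.6, Bowtie2 2.3.5.1, MACS2 2.1.1, deepTools, mm10 and hg19. How ATAC-seq peaks were called, and whether cut sites were shifted for Tn5, is not given there. The methods state an IDR threshold of 0.05 for ChIP-seq.

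Peaks within 1 kb of curated RefSeq TSSs (GRCm38) were counted with an overlap of at least 1 bp. Clusters joined members across gaps of up to 2 Mb. Unique 50- and 100-base stretches were counted on both strands. Motifs were searched in RefSeq promoter windows and stem-loops in the genome. Every member with a peak is named, and every other one is named without a value unless it lay just outside 1 kb or farthest. No test was run and no columns of other samples were used (0). The scripts were tested on simulated data. Members and lists were chosen with earlier results of these data known. The cell type markers, the octamer split by type and pair, the copies compared and the tRNA counts were added after the values were seen. Python 3.11.15, numpy 2.4.6, scipy 1.17.1 and matplotlib 3.10.9 were used.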

Additional observations from a re-analysis of the deposited data

How the results depend on the processing

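Limited to peaks above the median score, the list gave a peak at 16 histone genes instead of 28, and 18.7% instead of 28.5% of all protein-coding genes. The same limit gave 12 peaks at histone gene TSSs with a median score of 828.5, 45 peaks in the chromosome 13 cluster and 1 in the chromosome 3 cluster. It left 3 H2A, 5 H2B, 4 H3 and 4 H4 genes with a peak, so the shares of H3 and H4 genes, 4 of 12 each, came close to that of H2B genes, 5 of 16. Within 2.5 kb, 37 histone genes had a peak, against 33.2% of all protein-coding genes, with 9 of 17 H2A genes in place of 5. Within 500 bp, 23 histone genes had one, against 26.7% of all, with 6 of 12 H3 genes in place of 9. With only the anchors counted, 3 histone genes lay in responsive loops instead of 21. Of 83 values computed under alternatives, 72 moved by at most 1.5 times (or, for medians, by less than 1 SD over the peaks) and 11 by more. No paired analysis was possible because the results come from no test, and no replicate could be left out because the list pools both. The depth behind each peak is unknown, so a gene without a peak is one at which none was listed, not one shown to be closed. Few unique bases at 9 members limit their peaks.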
